A study of Mus musculus with 4 samples.

Results

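Chromosome 10 carries Ranbp2, the gene edited in the knockout cells, and the regions described here are the stretches of open chromatin called along that chromosome. Peaks of the 4 deposited lists that shared at least 1 bp were merged, and a chromosome 10 region with a peak in at least 2 lists was kept. This gave 1189 regions, out of 23116 such regions over the whole genome, and 562 of the 1189 had a peak in all 4 lists. Another 977 merged regions of chromosome 10 had a peak in 1 list only and were left out. The assay was ATAC-seq, which uses a transposase to cut and tag accessible DNA, and the cells were 10T1/2, a fibroblast line from mouse embryos. Wild-type cells gave 2 libraries, called wild type 1 and 2 here. Knockout cells gave the other 2 libraries, knockout 1 and 2, and came from a single clone of cells transfected with a CRISPR-Cas9 plasmid against Ranbp2 and sorted one by one. Both genotypes are otherwise the same cell line under the labels, and the labels name no other allele or agent. Because the knockout is 1 clone, what differs by clone and what differs by loss of Ranbp2 cannot be told apart. The labels do not say that libraries of a genotype came from separate cultures, so the spread between them may be technical.

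RANBP2, also called Nup358, is the large protein of the filaments that the nuclear pore extends into the cytoplasm. It binds the small GTPase Ran, helps disassemble export complexes as they leave the nucleus, and acts as a ligase for the small modifier SUMO. The assay reads the gene's DNA and not its product, so a small edit can leave a peak at its promoter. Peaks at gene starts are usually strong and shared between cell types, whereas peaks away from genes are more often enhancers particular to a cell type.

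The lists held 33721 and 18511 peaks in wild type 1 and 2 and 13877 and 24292 in knockout 1 and 2, so the genotypes overlapped in list length. No read counts were used here and the sequencing depth is unknown. To compare lists of unequal length, each of the 10977 regions present in all 4 lists genome-wide was given a rank in each library, as the percentile of its −log10 q among those regions, with 100 the strongest. The −log10 q is the peak caller's measure of confidence and the fold enrichment is the height of the peak over its local background. Both are the authors' values. A region was called lower when both knockout ranks lay below both wild-type ranks, higher in the opposite case, and overlapping otherwise. Of 10 fibroblast markers, a peak at a gene end was listed for 8 in wild type 1, 6 in wild type 2, 3 in knockout 1 and 5 in knockout 2. Col1a2, Fn1 and Vim had one in all 4 lists, and Pdgfra and Prrx1 had none in any list. None of 4 epithelial and none of 4 endothelial markers had one, and 1 of 4 immune markers did in wild type 1 alone.

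Promoter sequences are shown for the edited gene, for Lims1 and Gcc2 on its proximal side, and for 2 genes whose peak was lower in knockout, Map2k2 and Nup107. Each is the 250 bases before the annotated start, 5′ to 3′ on the gene's own strand, from RefSeq for GRCm38.p6, whose primary coordinates are those of mm10. Each of these 5 promoters overlaps a region present in all 4 lists. Capitals mark matches, on either strand, to the GC box GGGCGG, the CCAAT box CCAAT, the E-box CACGTG, the ETS motif CCGGAAG, the AP-1 motif TGANTCA or the TEAD motif GGAATG.
Ranbp2 promoter, chr10:58446602-58446851, plus strand: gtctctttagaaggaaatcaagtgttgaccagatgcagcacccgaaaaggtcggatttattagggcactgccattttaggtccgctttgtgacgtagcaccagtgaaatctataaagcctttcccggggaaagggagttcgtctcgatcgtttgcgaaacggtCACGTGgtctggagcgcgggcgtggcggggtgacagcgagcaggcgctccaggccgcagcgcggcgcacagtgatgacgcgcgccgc
Gcc2 promoter, chr10:58255276-58255525, plus strand: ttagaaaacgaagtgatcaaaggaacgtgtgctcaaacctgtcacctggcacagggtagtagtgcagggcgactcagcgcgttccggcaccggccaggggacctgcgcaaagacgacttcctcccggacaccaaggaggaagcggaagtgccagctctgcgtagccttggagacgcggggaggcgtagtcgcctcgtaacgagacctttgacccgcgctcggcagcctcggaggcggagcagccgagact
Lims1 promoter, chr10:58323297-58323546, plus strand: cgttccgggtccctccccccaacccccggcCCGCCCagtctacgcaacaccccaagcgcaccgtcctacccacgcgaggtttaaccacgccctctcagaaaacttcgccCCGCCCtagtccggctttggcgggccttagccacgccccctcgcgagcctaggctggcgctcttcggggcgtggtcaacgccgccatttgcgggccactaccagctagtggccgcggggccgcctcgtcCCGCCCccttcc
Map2k2 promoter, chr10:81105665-81105914, plus strand: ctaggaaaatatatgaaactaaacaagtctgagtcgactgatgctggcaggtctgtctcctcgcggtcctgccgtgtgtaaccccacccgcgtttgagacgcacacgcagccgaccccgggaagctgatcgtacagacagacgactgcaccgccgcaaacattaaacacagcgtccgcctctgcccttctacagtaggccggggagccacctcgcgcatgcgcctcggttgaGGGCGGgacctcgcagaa
Nup107 promoter, chr10:117792706-117792955, minus strand: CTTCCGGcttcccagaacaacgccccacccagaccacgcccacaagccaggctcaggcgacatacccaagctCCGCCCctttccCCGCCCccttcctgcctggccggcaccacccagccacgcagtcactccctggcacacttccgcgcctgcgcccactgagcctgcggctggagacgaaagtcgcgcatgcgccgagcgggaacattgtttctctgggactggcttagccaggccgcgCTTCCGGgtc

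The Ranbp2 promoter holds 1 match, the palindrome CACGTG at bases 164 to 169 of the printed window. The deposited summits, the highest points of the peak, stood at base 170 in wild type 1 and knockout 2 and at base 193 in wild type 2 and knockout 1. In 1 library of each genotype the summit was the base next to that motif. CACGTG occurs in 6.06% of 32619 RefSeq promoters cut to the same 250 bases. It is in 9.68% of the 5250 promoters genome-wide under a region in all 4 lists and in 11.7% of the 274 such promoters on chromosome 10. Gcc2 has no match. Lims1 has 3 GC boxes, Map2k2 has 1, and Nup107 has 2 GC boxes and 2 ETS matches. At this length the GC box is in 33.0%, the CCAAT box in 34.0% and the ETS motif in 6.96% of all promoters. The AP-1 motif is in 6.78% and the TEAD motif in 12.6%. In Lims1 the summits lay before the first printed base. The matches describe these letters only.

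Fewer chromosome 10 regions were listed in knockout cells once the lists were made equally long. As deposited, 98.1% and 81.5% of the 1189 regions had a peak in wild type 1 and 2, against 55.4% and 83.4% in knockout 1 and 2. The 2 genotypes overlapped on this measure, and the order followed list length, with 97.8%, 77.6%, 57.2% and 86.9% over all 23116 regions. When every list was cut to its 13877 strongest peaks by −log10 q, the shares were 62.9% and 63.5% in wild type and 55.4% and 54.6% in knockout. The genotypes then did not overlap on chromosome 10. Over all regions the 4 shares were 58.6%, 59.5%, 57.2% and 58.5%, which did not overlap either but lay closer together. The drop was not particular to chromosome 10. Both knockout shares also lay below both wild-type shares on chromosomes 9, 11, 13, 15, 19 and X. They lay above them on chromosomes 1, 6, 8, 12, 17 and 18. On chromosome 9 the shares were 66.2% and 66.4% in wild type and 52.1% and 56.2% in knockout. At this length 91 chromosome 10 regions were in both wild-type lists and neither knockout list, which is 7.65% of them against 5.33% of all regions. The reverse was seen for 36 regions, 3.03% against 4.5% genome-wide. As deposited these counts were 165 (13.9%, against 11% of all regions) and 15 (1.26%, against 1.61%). At equal length the share in both wild-type lists and neither knockout list was 8.04%, 8.54%, 7.79% and 5.30% on chromosomes 9, 13, 15 and 19.

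Among the 562 regions in all 4 lists, peaks ranked lower in knockout when ordered by −log10 q, and hardly lower when ordered by fold enrichment. By −log10 q the median rank was 57.6 and 54.7 in wild type and 52.1 and 46.9 in knockout, a shift of −6.65 percentile points. Both knockout medians were below both wild-type medians. The exact two-sided permutation p was 0.333, the smallest that 2 libraries against 2 can give, so the design cannot pass a threshold. Counted singly, 234 regions (41.6%) were lower against 25% of all 10977 regions, and 72 (12.8%) were higher against 22.7%. The 4 pairings of a knockout with a wild-type library gave median region differences from −5.24 to −4.14.

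Ordered by fold enrichment, the same 562 regions had median ranks of 49.3 and 50.9 in wild type and 50.1 and 47.8 in knockout, a shift of −1.10 points with overlapping libraries. By that measure 129 regions (23.0%) were lower, beside 22% of all regions, and 96 (17.1%) were higher, beside 21.8%. So the share of lower regions on chromosome 10 was close to the genome-wide share on the fold scale and above it on the −log10 q scale. The share of higher regions was below the genome-wide share on both scales. By fold the median of the single-region differences was −1.62 points, beside −0.041 over all regions. Of the 234 regions lower by −log10 q, 127 were also lower by fold. Chromosome 10 was not alone: by −log10 q the share of lower regions was 40.6%, 41.0%, 40.2% and 38.0% on chromosomes 9, 13, 15 and 19. By fold it was 25.3%, 25.2%, 27.3% and 25.3% there, beside 23.0% on chromosome 10. On those 4 chromosomes and on chromosomes 5 and 11, too, both knockout medians by −log10 q were below both wild-type medians. The size of the chromosome 10 shift depended on the measure.

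**Figure D1:**
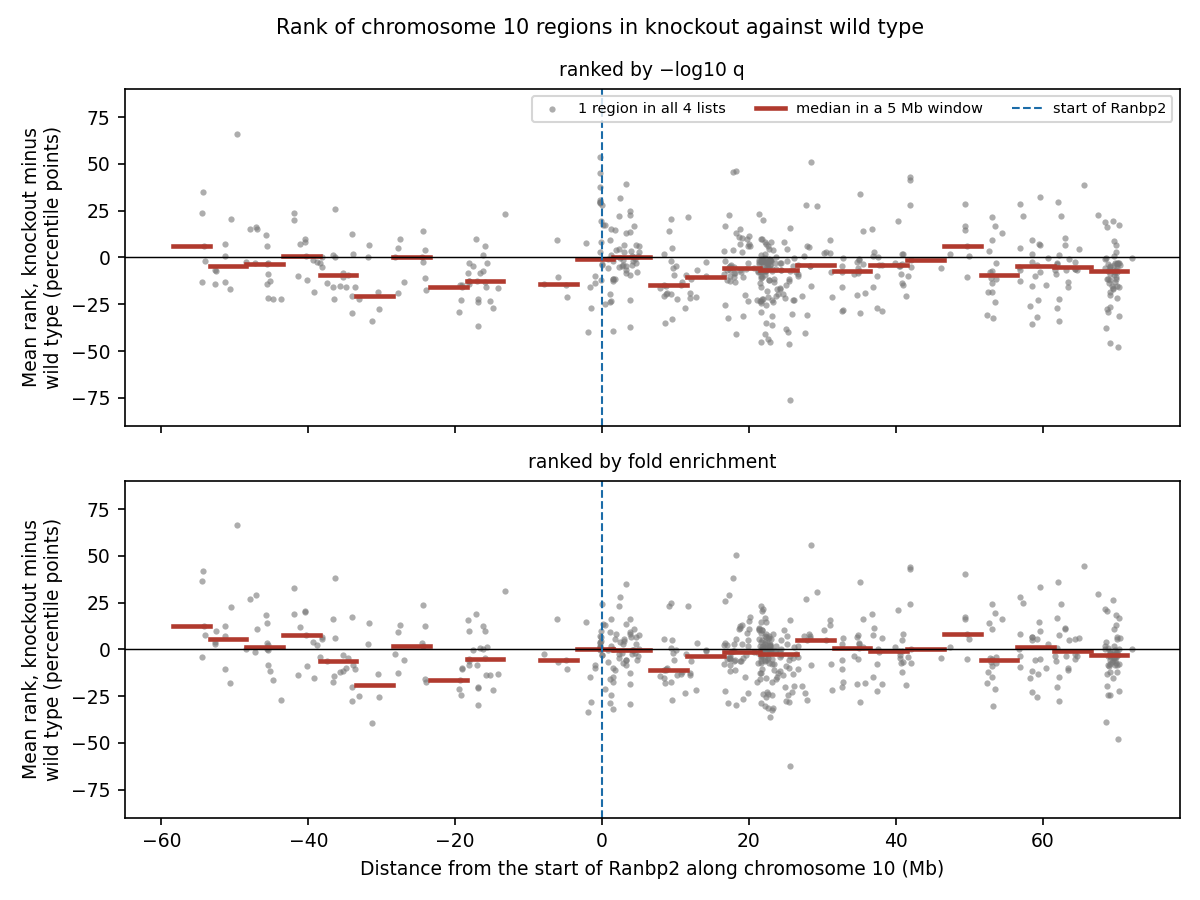
Rank difference, knockout minus wild type in percentile points, of each chromosome 10 region in all 4 lists (points) against distance from the start of Ranbp2 in Mb, with the median of each 5 Mb window that holds at least 5 regions (bars). Ranked by −log10 q most window medians lie below 0, and ranked by fold enrichment they lie closer to 0 on both sides of it.

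Windows lower by −log10 q lay on both sides of Ranbp2, and the windows from 55 to 60 and from 60 to 65 Mb, the first of which holds the gene, were not among them. Of 25 windows of 5 Mb with at least 5 regions in all 4 lists, 11 (44.0%) had both knockout medians below both wild-type medians, against 25.2% of 440 windows on other chromosomes. Another 3 windows (12%) were higher, against 24.5%. These ran from 55 to 60, from 85 to 90 and from 100 to 105 Mb. The median of their single-region differences was −0.954, −4.04 and −1.55 points, opposite in sign to the difference between their medians. On the fold scale 5 of the 25 windows (20.0%) were lower, against 20.7% elsewhere, and 8 (32.0%) were higher, against 23.0%. The window from 80 to 85 Mb held the most regions, with median ranks of 69.3 and 71.2 in wild type and 57.9 and 60.4 in knockout. There 64 of 105 regions (61.0%) were lower and 3 (2.86%) higher by −log10 q, against 25% and 22.7% of all regions. By fold 29 (27.6%) were lower and 9 (8.57%) higher, against 22% and 21.8%. The window from 125 to 130 Mb near the end of the chromosome had medians of 72.4 and 75.0 in wild type and 61.2 and 62.3 in knockout. It had 30 lower (55.6%) and 6 higher (11.1%) of 54 regions by −log10 q. By fold 13 (24.1%) were lower and 8 (14.8%) higher, beside 22% and 21.8%.

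From 60 to 65 Mb, a window that begins more than 1 Mb beyond Ranbp2, more regions were higher than lower, and the contrast with the rest of the chromosome was not tested. This window, singled out after its values were seen, had medians of 67.4 and 64.9 in wild type and 66.7 and 76.1 in knockout. The genotypes overlapped on these medians. Of its 38 regions 4 (10.5%) were lower and 12 (31.6%) higher by −log10 q, beside 25% and 22.7% of all regions. By fold 5 (13.2%) were lower and 7 (18.4%) higher, beside 22% and 21.8%. Nearer to the gene, from 59 to 60 Mb, 4 of 12 regions were lower and 0 higher by −log10 q, with medians of 60.6 and 64.3 in wild type and 44.4 and 48.0 in knockout. The window from 55 to 60 Mb, which holds Ranbp2, had 9 lower (25.7%) and 11 higher (31.4%) of 35 regions by −log10 q and was 1 of the 3 windows with higher medians. Without the cluster of Dux genes described below it had 9 lower and 3 higher of 26, with medians of 55.5 and 52.3 in wild type and 44.4 and 45.1 in knockout.

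**Figure D2:**
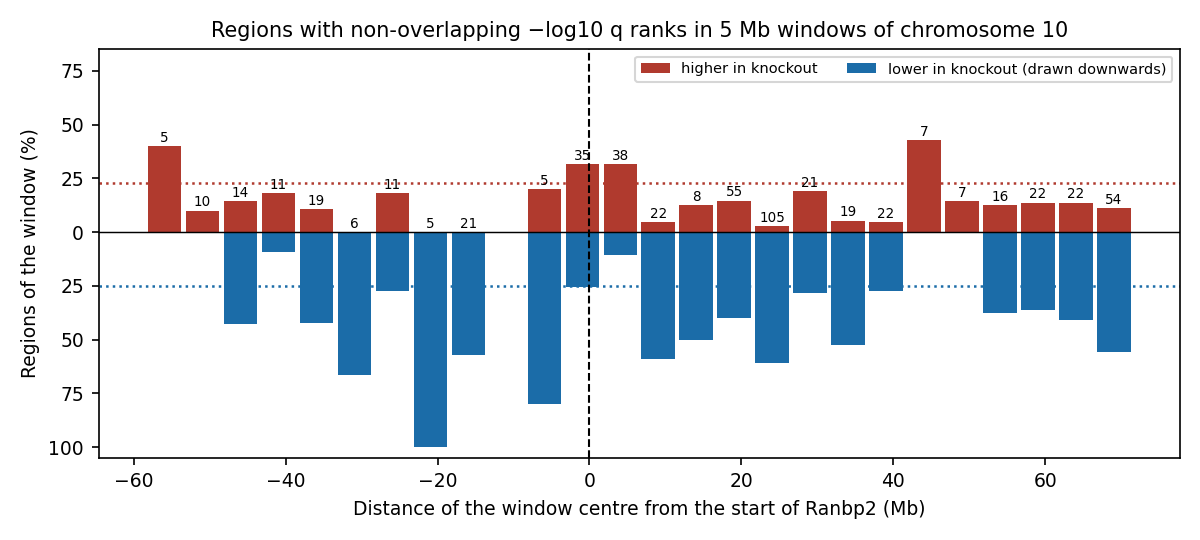
Share of regions higher in knockout (upward bars) and lower (downward bars) by −log10 q rank in each 5 Mb window of chromosome 10, against the distance of the window centre from the start of Ranbp2 in Mb; the figure over each bar is the number of regions in all 4 lists. Dotted lines mark the genome-wide 22.7% higher and 25% lower, and windows with fewer than 5 regions are not drawn.

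The sides of Ranbp2 differed in how their shift read. On the distal side, toward the end of the chromosome, 435 of 860 regions were in all 4 lists, and their medians were 60.8 and 59.1 in wild type and 54.9 and 48.0 in knockout. That shift was −8.53 points, with 187 regions (43.0%) lower and 50 (11.5%) higher, against 25% and 22.7% of all regions. On the fold scale the distal shift was −2.50 points. On the proximal side, toward the centromere, 126 of 328 regions were in all 4 lists, with medians of 40.6 and 48.0 in wild type and 50.1 and 44.2 in knockout. Those medians overlapped and their shift was +2.86 points, whereas the median of the single-region differences was −6.95. The sign thus depended on the summary used. Counted singly by −log10 q, 47 (37.3%) were lower and 22 (17.5%) higher, against the same 25% and 22.7%. Without the Dux cluster the proximal shift was −2.45 points by −log10 q. On the fold scale, with the cluster, it was +1.12 points, and single proximal regions were not counted by fold.

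Close to Ranbp2 the peaks gave no common direction outside the Dux cluster. Within 1 Mb of the gene lay 39 of the 1189 regions, 21 of them in all 4 lists. Of these 3 (14.3%) were lower and 11 (52.4%) higher by −log10 q, against 25% and 22.7% of all regions. Leaving out the cluster, 12 remained, with 3 lower (25%), 3 higher (25%) and 6 overlapping, which is close to those genome-wide shares. The region at the Ranbp2 start, chr10:58446659-58446973, covers most of the promoter printed above and the first bases of the gene. Its fold enrichment was 18.1 and 13 in wild type and 8.22 and 14.4 in knockout. Its rank was 68.8 and 55.1 in wild type and 45.6 and 71.6 in knockout by −log10 q and 77.9 and 63.3 in wild type and 53.8 and 81.9 in knockout by fold. The libraries overlapped on both scales, with knockout 1 the lowest and knockout 2 the highest of the 4. A second, weaker region upstream, chr10:58445867-58446111, was listed in wild type 1 and knockout 1 only.

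Lims1, next to Ranbp2 on the proximal side, encodes PINCH1, an adaptor that joins integrin-linked kinase to focal adhesions. The region at its start, chr10:58322897-58323656, had ranks of 86.1 and 88.5 in wild type and 76.3 and 74.4 in knockout by −log10 q. Both knockout libraries were lower there, and the region overlaps 1 of the wild-type-enriched regions of the authors' deposited table. By fold its ranks were 57.9 and 67.2 in wild type and 71.7 and 61.8 in knockout, which overlap. A second region inside Lims1, chr10:58383428-58383631, went the other way, with ranks of 24.8 and 11.7 in wild type and 57.8 and 34.6 in knockout, and was higher on the fold scale too. Gcc2, which encodes a golgin that tethers vesicles at the trans-Golgi, had ranks of 57.2 and 53.0 in wild type and 60.7 and 65.9 in knockout at its start, chr10:58255331-58255542. Both knockout libraries were higher by −log10 q there, and the libraries overlapped by fold.

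On the distal side the region at Ccdc138, chr10:58497772-58498015, lay 3.62 kb from the end of Ranbp2 and had overlapping ranks of 23.0 and 47.0 in wild type and 24.2 and 38.0 in knockout. Edar, a receptor of the tumour necrosis factor family needed for hair and tooth development, had overlapping ranks of 53.8 and 24.2 in wild type and 59.2 and 53.2 in knockout at chr10:58604734-58605139. Inside Sh3rf3, which encodes a scaffold with SH3 domains, 2 regions in all 4 lists moved apart. The region chr10:58812211-58812555 was higher in knockout, with ranks of 18.9 and 8.0 in wild type and 23.7 and 37.4 in knockout. The region chr10:58837598-58837869 was lower, with ranks of 44.3 and 46.7 in wild type and 8.30 and 32.9 in knockout. Both kept that order by fold. The start of Serinc1, chr10:57532350-57532664, was lower on both scales, with −log10 q ranks of 66.2 and 53.3 in wild type and 48.6 and 43.8 in knockout. The regions at Hsf2, Sowahc and the start of P4ha1 overlapped between genotypes on the −log10 q scale. The other 11 regions within 1 Mb and outside the cluster were in 2 or 3 lists, at Ranbp2, Ccdc138, Edar, Sh3rf3, Sowahc, P4ha1 and Oit3. Of these, chr10:58915810-58916209 inside Sh3rf3 was in both wild-type lists and no knockout list, and chr10:58653764-58653916 inside Edar was in both knockout lists and no wild-type list.

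**Figure D3:**
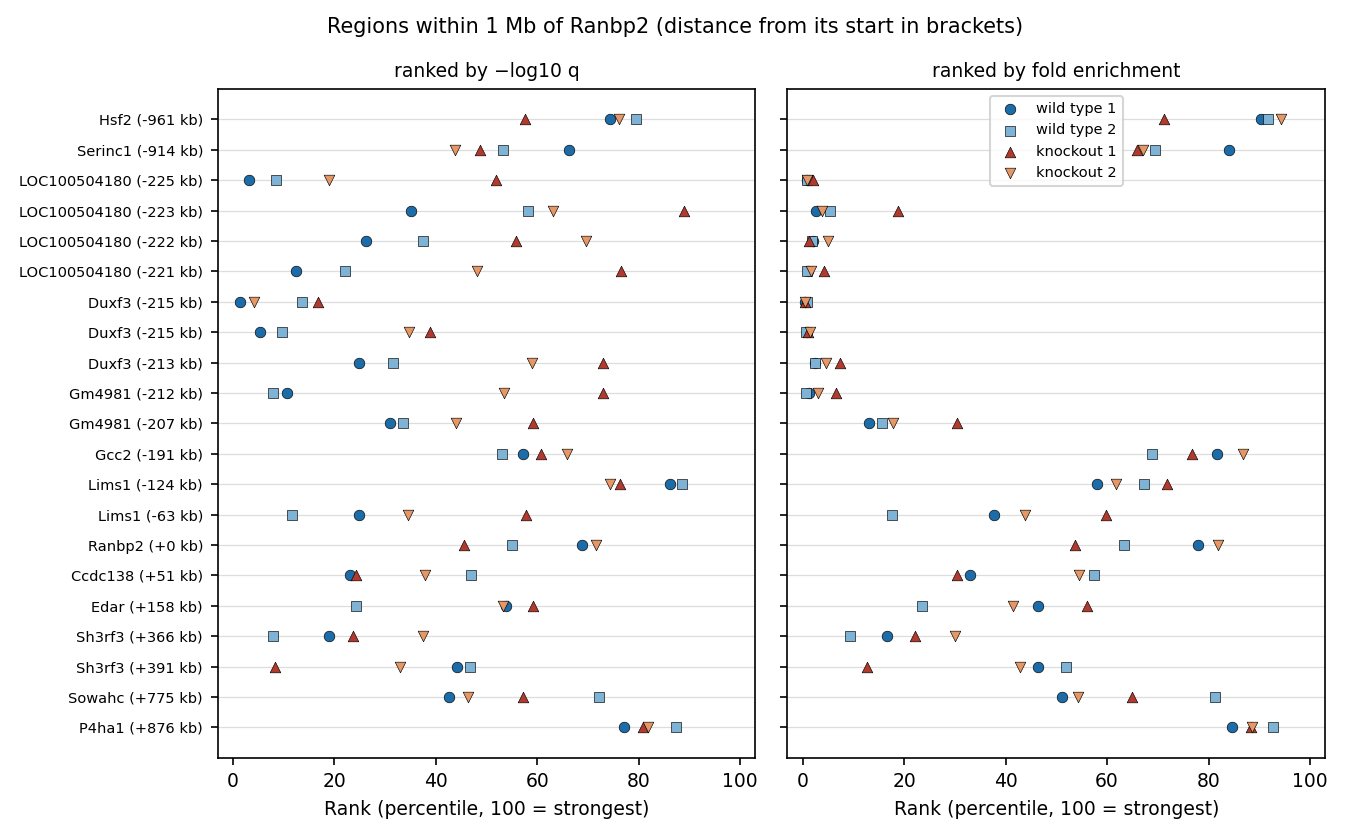
Rank of each of the 21 regions in all 4 lists within 1 Mb of Ranbp2, by −log10 q (left) and by fold enrichment (right), 1 symbol per library, ordered along the chromosome. The 9 regions named LOC100504180, Duxf3 and Gm4981 spread by genotype on the left and on the right sit at ranks of 30.3 or less in every library.

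The regions of the Dux cluster were the most uniform group in that interval on one scale and had median ranks near the bottom on the other. Duxf3 and its copies encode double-homeobox factors, known for switching on genes of the early embryo, and stand as a tandem repeat. The cluster was singled out after its values were seen, as the 16 regions named LOC100504180, Duxf3 or Gm4981. They span 33.7 kb from base 58206073 to base 58239726 and end 207 kb before Ranbp2. Of the 9 regions in all 4 lists, 8 (88.9%) were higher and 0 lower by −log10 q, beside 22.7% and 25% of all regions. Their median rank was 12.4 and 22.2 in wild type and 59.1 and 48.1 in knockout. By fold enrichment 6 (66.7%) were higher and 0 lower, beside 21.8% and 22% of all regions. The median fold rank was 1.31 and 0.911 in wild type and 4.25 and 3.08 in knockout, at the bottom of the list in every library. At Gm4981, chr10:58235131-58235254, −log10 q was 23.4 and 9.11 in wild type and 23.8 and 34.0 in knockout and fold enrichment was 4.19 and 3.8 in wild type and 5.09 and 4.92 in knockout. Copies of a repeat can share reads, so values of single copies are uncertain, and the sources used here do not say how reads that map to several places were treated.

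Regions at gene ends, no further than 1 kb from the first or last base of a protein-coding gene, made up more of the lower than of the higher regions by −log10 q. Of 424 such regions 281 were in all 4 lists, and their medians were 69.4 and 70.8 in wild type and 65.8 and 62.0 in knockout. That is a shift of −6.19 points (exact permutation p = 0.333), with 132 (47.0%) lower and 20 (7.12%) higher. Over gene ends of the whole genome the shares were 26.8% lower and 15.4% higher. On the other chromosomes gene ends shifted by −1.93 points. Elsewhere 281 of 765 regions were in all 4 lists, with medians of 40.7 and 42.2 in wild type and 40.6 and 37.2 in knockout and a shift of −2.57. Of these 102 (36.3%) were lower and 52 (18.5%) higher, against 23.6% and 28.4% genome-wide. Regions elsewhere on the other chromosomes shifted by +2.96 points. By fold the shift was −0.904 points at gene ends, where 61 (21.7%) were lower and 28 (9.96%) higher, against 23.0% and 16.6% of all gene ends. Elsewhere the fold shift had the opposite sign, +1.5, with 68 (24.2%) lower and as many higher, against 21.2% and 26.5%. Over the whole genome the fold shift was −2.02 at gene ends and +2.35 elsewhere, so the 2 classes differed in sign there too. The difference between gene ends and other regions was not tested.

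**Figure D4:**
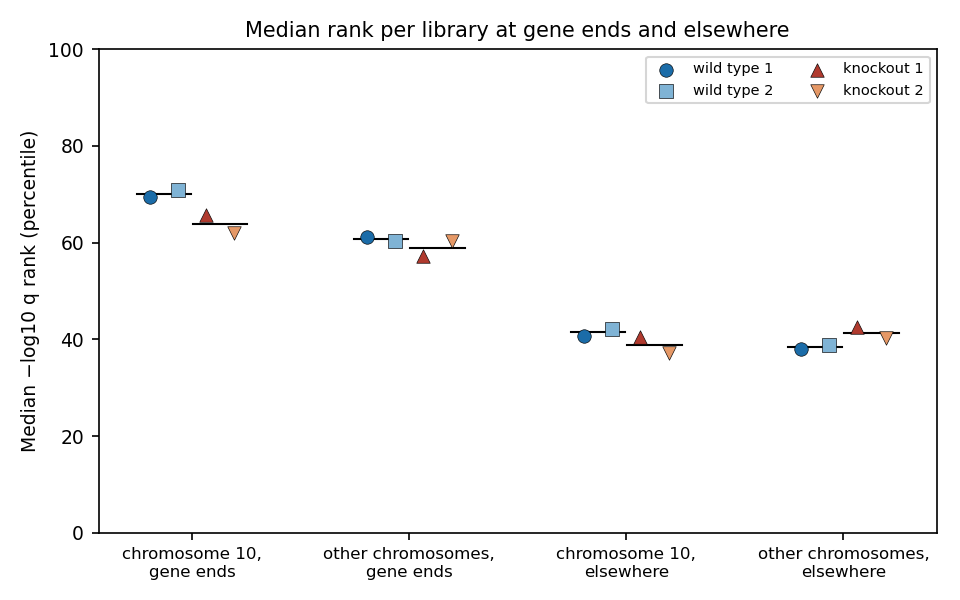
Median −log10 q rank of each library (symbols) and the mean of the 2 libraries of a genotype (lines) at gene ends and elsewhere, on chromosome 10 and on the other chromosomes. On chromosome 10 the knockout medians at gene ends, 65.8 and 62.0, lie below the wild-type medians, 69.4 and 70.8.

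The lower regions by −log10 q included many strong peaks. All regions were split into 3 equal classes by mean rank in the 4 libraries. Of the strongest class 206 lay on chromosome 10 and 111 of them (53.9%) were lower, against 25.3% of that class genome-wide. In the weakest class 56 of 171 (32.7%) were lower, against 23.6%. Strength is part of the same ranking, so these shares describe where on the scale the lower regions sat.

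Chromosome 10 also held a large part of the regions that the authors called wild-type enriched. In the authors' deposited table of wild-type-enriched regions 41 of 190 lay on chromosome 10, overlapping 42 of the regions described here (3.53%, against 0.835% of all regions), 27 of them at gene ends. Other chromosomes held such overlapping regions too, with 23 of 1194 on chromosome 9 and 22 of 949 on chromosome 13. There were 22 of 1156 on chromosome 15 and 21 of 773 on chromosome 19, but 1 of 1087 on chromosome 17. Of the 42 regions that overlap the authors' deposited table, 37 were in all 4 lists, 28 of these were lower and 0 higher by −log10 q, and 10 were lower and 1 higher by fold. The list came from the same libraries and is no independent evidence. By position, 8 regions overlapping the authors' deposited table of wild-type-enriched regions were proximal and 34 distal to Ranbp2. The 5 strongest gene-end regions overlapping the authors' deposited table lay at Mbd3, Csnk1g2, Rab5b, Dazap1 and Izumo4. At Mbd3, whose product belongs to the NuRD complex of chromatin repressors, the ranks were 98.7 and 99.1 in wild type and 97.4 and 96.4 in knockout by −log10 q. By fold they were 87.2 and 98.2 in wild type and 95.5 and 89.0 in knockout, which overlap. The 5 strongest away from gene ends that overlap the authors' deposited table lay inside Txnrd1, Bclaf1 and Cdk19 and outside Tmpo and 1500009L16Rik, the nearest genes. The region 59.6 kb from Tmpo, which encodes the lamina-associated protein LAP2, had ranks of 66.6 and 78.4 in wild type and 35.6 and 53.6 in knockout by −log10 q. Both knockout libraries were lower there, and the ranks by fold overlapped.

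Only 3 of the 189 knockout-enriched regions of the authors' deposited table lay on chromosome 10, all of them distal to Ranbp2. They overlap 3 of the regions described here, or 0.252%, against 0.822% of all regions. The first, chr10:59310784-59310968, lies nearest to P4ha1, which encodes the catalytic subunit of collagen prolyl hydroxylase. It was listed in wild type 1 and knockout 2 only, with fold enrichments of 4.25 and 6.39. The second, chr10:60816959-60817197, lies in Unc5b, a netrin receptor, and had ranks of 51.3 and 49.3 in wild type and 67.5 and 77.0 in knockout. The third, chr10:60934385-60934602, had no protein-coding gene within 100 kb and ranks of 38.7 and 40.2 in wild type and 65.3 and 77.3 in knockout. The 2 regions in all 4 lists were higher in knockout on both scales.

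The 10 largest drops were chosen by their −log10 q difference, so they are a description, and all 10 were also lower by fold. The largest was at chr10:84067146-84067666, more than 100 kb from any protein-coding gene, where the rank was 97.7 and 85.7 in wild type and 8.79 and 22.5 in knockout, a difference of −76.0 points. Its fold enrichment was 18.5 and 13 in wild type and 4.89 and 6.51 in knockout, and its fold rank differed by −62.5 points. Both wild-type libraries had a strong peak there and both knockout libraries a weak one. A second region of this kind, chr10:83895713-83896470, lay less than 1 Mb away, with ranks of 92.2 and 85.3 in wild type and 47.4 and 37.4 in knockout.

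The second largest drop was at chr10:128779530-128779790, 11.1 kb outside Mmp19, which encodes a matrix metalloproteinase. Its ranks were 88.5 and 82.4 in wild type and 40.6 and 34.6 in knockout and its fold enrichment was 20.1 and 16.2 in wild type and 7.26 and 8.29 in knockout. A region inside Lrp1, chr10:127597375-127597930, away from the ends of this gene for an endocytic receptor, had ranks of 65.7 and 33.7 in wild type and 4.66 and 3.01 in knockout. The region at the start of Map2k2, chr10:81105822-81105999, had ranks of 56.3 and 59.0 in wild type and 7.19 and 21.5 in knockout. Map2k2 encodes MEK2, a kinase of the ERK pathway, and its promoter is printed above. Klf16, a zinc-finger transcription factor gene, had ranks of 67.1 and 84.7 in wild type and 11.6 and 58.6 in knockout at chr10:80577310-80577561. In both of these gene-end regions knockout 1 was the lowest library. The remaining 4 drops lay inside Sbno2, Apba3 and Syn3 and 39.5 kb from Col6a1, with differences from −45.2 to −40.4 points.

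The 10 largest rises, chosen in the same way, included 2 regions of the Dux cluster and 8 elsewhere on the chromosome. The first was inside Sash1, chr10:8768742-8769022, a scaffold gene of signalling pathways, with ranks of 17.7 and 4.82 in wild type and 81.0 and 73.3 in knockout by −log10 q and 24.8 and 7.41 in wild type and 87.2 and 78.0 in knockout by fold. A region inside Stab2, a scavenger receptor for hyaluronan, chr10:86970196-86970327, had ranks of 1.77 and 10.2 in wild type and 60.4 and 53.4 in knockout and fold enrichments of 5.91 and 7.07 in wild type and 9.52 and 11.2 in knockout. A region 25.1 kb from Col6a2, which encodes a chain of collagen VI, chr10:76648775-76649121, had ranks of 27.8 and 33.6 in wild type and 75.1 and 78.2 in knockout. It lies outside both genes, as does the region near Col6a1 that was lower. S100b and Ppa1 each held a rising region, with differences of 45.6 and 39.1 points. Near Gm4301 and Gm4307, predicted genes that stand close together, the differences were 43.1 and 41.4 points. The last 3 were a region with no gene within 100 kb, with a difference of 38.6, and the 2 Dux-cluster regions, at 53.9 and 45.1. All 10 were higher on the fold scale too, but for the 2 Dux-cluster regions the fold rank moved by only 3.84 and 1.93 points.

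**Figure D5:**
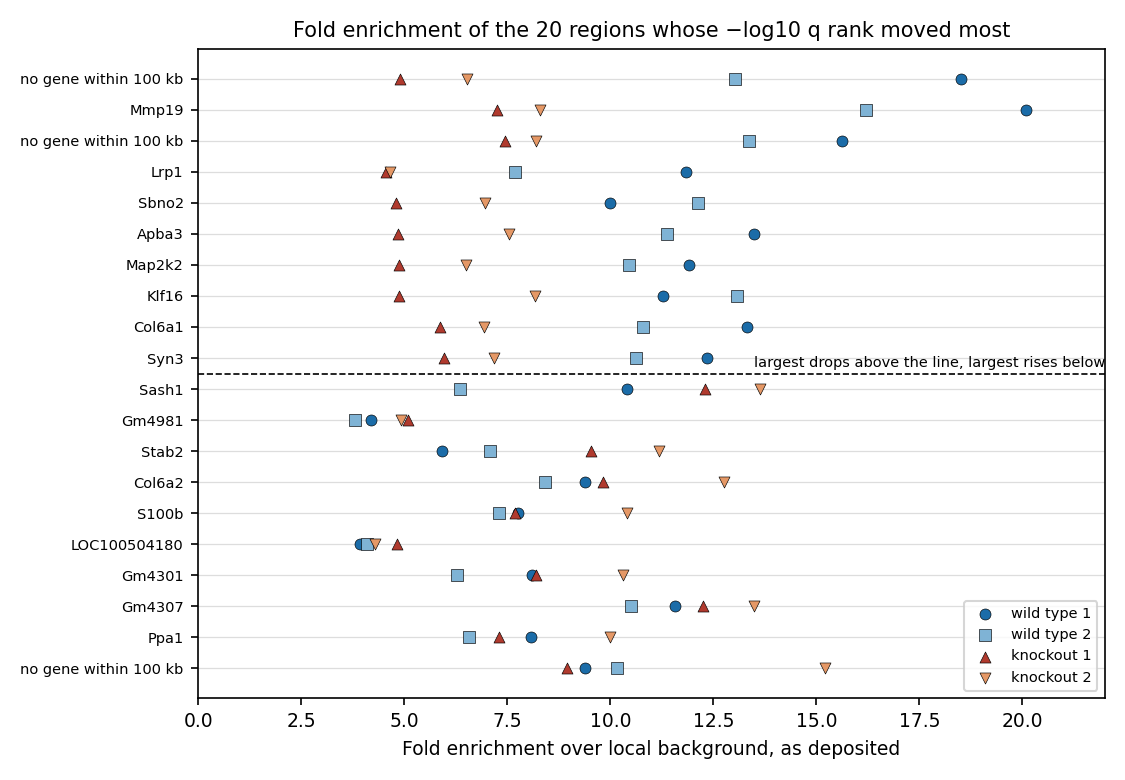
Fold enrichment over local background, as deposited, of the 10 regions with the largest drop and the 10 with the largest rise in −log10 q rank, 1 symbol per library, labelled by gene. In every drop both knockout values lie below both wild-type values, and for S100b, Ppa1 and the last region a wild-type value lies above a knockout value.

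Some regions left the list altogether in one genotype when lists were cut to equal length. The 5 strongest of the 91 regions then kept only in wild type lay at Gstt2, a glutathione transferase, at Hey2, a Notch target repressor, 48.1 kb from Sgk1, near Reep3 and in Tle6. At Gstt2, chr10:75837209-75837666, −log10 q was 98.2 and 44.4 in wild type, and no knockout list held a peak at any length. At Hey2, chr10:30842715-30843036, it was 82.8 and 40.4, with a weak peak of 7.03 in knockout 2. The 5 strongest of the 36 kept only in knockout lay at Gm4981, Gm4301, Ppa1, Duxf3 and Akap7. In the full lists each of these 5 also had a peak in wild type 1, so none was private to knockout.

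In lists of chromosome 10 genes grouped by function, fewer regions were lower by fold than by −log10 q. They cover gene-end regions in all 4 lists. By −log10 q they are read beside the 47.0% of chromosome 10 gene ends and 26.8% of all gene ends that were lower. The shares of higher regions were 7.12% and 15.4%. By fold 21.7% of chromosome 10 gene ends were lower and 9.96% higher, beside 23.0% and 16.6% of all gene ends. For nuclear transport and RNA genes 6 of 9 regions were lower and 0 higher by −log10 q, and 3 were lower by fold. They lay at Nup107, a scaffold subunit of the pore, Xpot, the exporter of transfer RNA, and Dazap1, Polr2e, Snrpf and Ptbp1. The Nup107 region, chr10:117792606-117793067, had ranks of 74.4 and 66.3 in wild type and 39.6 and 55.8 in knockout and the Snrpf region, chr10:93589619-93589790, had ranks of 52.4 and 33.2 in wild type and 1.47 and 25.1 in knockout. Both were lower on both scales, as was Polr2e.

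For cell cycle and stress genes 6 of 9 regions were lower and 0 higher by −log10 q, and 2 were lower and 1 higher by fold. Cdk1, the kinase that drives entry into mitosis, had ranks of 79.0 and 80.3 in wild type and 68.1 and 64.7 in knockout at chr10:69352842-69353151 and was lower on both scales. Cdk4, the kinase of early cell cycle entry, overlapped by −log10 q, with ranks of 96.6 and 95.8 in wild type and 96.2 and 96.2 in knockout, and was higher by fold. For signalling and growth genes 6 of 10 were lower and 0 higher, and 3 were lower by fold. Fyn, a kinase of the Src family, had ranks of 95.5 and 92.7 in wild type and 83.3 and 73.2 in knockout at chr10:39369562-39369848 and was lower on both scales.

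For transcription and chromatin genes 6 of 15 were lower and 1 higher by −log10 q, and 4 were lower and 2 higher by fold. Tcf3, a basic helix-loop-helix factor, had ranks of 93.4 and 91.6 in wild type and 71.6 and 69.4 in knockout, and Sirt6, a histone deacetylase, had ranks of 63.9 and 60.7 in wild type and 31.3 and 20.9 in knockout, both lower on both scales. The exception was Hmga2, an architectural chromatin protein, with ranks of 3.23 and 7.86 in wild type and 29.9 and 40.4 in knockout at chr10:120476694-120476972, higher on both scales. For matrix and adhesion genes 1 of 4 was lower, Lims1, and none was lower by fold. Ccn2, the matricellular growth factor also called CTGF, had overlapping ranks of 65.6 and 75.5 in wild type and 70.4 and 73.9 in knockout. The median differences of the 5 lists ran from −7.01 to −4.23 points, beside −6.51 for all chromosome 10 gene ends and −0.549 for all regions.

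Promoters under lower, higher and overlapping regions had similar base composition. The median GC content of the 250 bases before the start was 62.8% for 145 promoters under lower regions, 62.6% for 14 under higher regions and 64.0% for 115 under overlapping regions of chromosome 10. The GC box was in 71.7%, 64.3% and 69.6% of them and the ETS motif in 18.6%, 7.14% and 20.9%. With 14 promoters in the higher class, its shares rest on few genes, and 1 promoter there held an ETS match.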

How the data were processed

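ATAC-seq peaks were available from 4 libraries, 2 wild type and 2 knockout. Per the submitters' processing notes mm10 was the genome build, and MACS2, Bowtie2, cutadapt, deepTools, DESeq2 and DiffBind 2.2.12 are named as tools without their roles. The authors deposited 1 peak list per library, with a fold enrichment (a ratio to the local background), a −log10 p and a −log10 q for each peak, and a score that was not used. They also deposited 2 lists of differential regions as positions only, and the sources used here do not state their threshold. The lowest −log10 q in the deposited lists is 3.00.

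Here, peaks were merged at 1 bp of overlap, and regions in all 4 lists were ranked per library by the deposited −log10 q. The fold ranking is an alternative. Genes are the 21887 protein-coding RefSeq spans of GRCm38.p6, a table with no strand, so a gene end is within 1 kb of either end. A region is named by the gene that contains it or the nearest within 100 kb, and all 32619 promoter entries came from RefSeq. Tests are two-sided exact permutation tests over libraries (Python 3.11.15, numpy 2.4.6, scipy 1.17.1), and the code was tested on simulated data. No read counts were used, so no test on counts was made. The regions and the gene lists were chosen with earlier results of these data known.

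The naming rule took regions within 1 Mb of Ranbp2, the 5 strongest regions per class overlapping the authors' wild-type list and all in the knockout list, the 10 largest drops and rises among regions with non-overlapping libraries, the 5 strongest per genotype at equal list length, and genes of the fixed lists. Alternatives were fold ranking, whole-list percentiles, a −log10 q of at least 5, an overlap of 50 bp, equal list length, windows moved by 2.5 Mb, regions left out, a replicate block, and each library left out in turn. Samples sharing a replicate number did not deviate together.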

Additional observations from a re-analysis of the deposited data

How the results depend on the processing

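Ranked by fold enrichment, the chromosome 10 shift was −1.10 points instead of −6.65. By fold, 5 windows instead of 11 and 129 regions instead of 234 were lower. Gene ends shifted by −0.904, the distal side by −2.50 and the proximal side by +1.12, and regions elsewhere changed sign to +1.5. Over the whole genome the fold shift was −2.02 at gene ends and +2.35 elsewhere. As percentiles of each whole list, the shift was −11.0 for the chromosome, −8.69 at gene ends, −11.1 elsewhere and −6.94 on the proximal side. Whole-list percentiles depend on list length, which differed between libraries. No genome-wide value was computed on that scale, so these shifts cannot be read as particular to chromosome 10. The proximal value of +2.86 was also −6.95 as a median of region differences and −2.45 without the Dux cluster, both chosen after seeing the data. The cause was not tested.

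Leaving out 1 library at a time, presence moved from −34.1 to −6.57 points (−20.4 with all 4), the shift from −6.62 to −3.53, lower windows from 13 to 18, lower regions from 303 to 409, gene ends from −8.22 to −3.73, elsewhere from −7.58 to −2.06, the proximal side from −6.87 to 6.20 and the distal side from −9.03 to −5.91. Presence was taken from the lists as deposited, where the shares followed list length. At equal list length it was −8.20 points with all 4 libraries. Counts of lower regions rise by construction when a genotype has 1 library. Without knockout 1 there were 18 lower windows, 409 lower regions and shifts of −7.58 elsewhere and −6.87 on the proximal side. Without knockout 2 the chromosome shift was −3.53 and that of gene ends −3.73.

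With the replicate number as a block, the shift was −6.65, with 12 windows and 278 regions lower. Same-numbered libraries correlated at 0.029 across regions after removing genotype means. With 2 libraries per genotype this is 1 contrast, which cannot show whether same-numbered samples were prepared together. The labels do not say. A stricter −log10 q and a 50 bp overlap kept each of these values within the spread between libraries or, for counts, within 1.5 times. So did leaving out the authors' regions, which was not run for presence. Shifted windows were run for the window count only, with 10 lower. Leaving out regions within 5 Mb of Ranbp2 was run for the chromosome shift only, which was then −7.52. Depth is unknown, so absence from a list can mean a peak under its threshold.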
